A study of Mus musculus with 2 samples.

Results

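The hepatocyte transcription factors described here are the products of 8 genes, Hnf4a, Foxa1, Foxa2, Foxa3, Cebpa, Cebpb, Nr5a2 and Onecut1, chosen by name and matched to the table through their Ensembl identifiers and GENCODE M21 symbols. All 8 were found among the 35275 genes of the table. RNAseq read counts came from AML12 cells, a mouse hepatocyte cell line that was established from an animal carrying a human TGFα transgene, and the labels give its source as the liver of a male CD-1 mouse of 3 months. Control AML12 cells were untreated. Senescent AML12 cells had been made senescent prematurely with hydrogen peroxide, exposed for 1 h a day over 6 days, with 1 mM on day 1 and 750 µM thereafter, and left to recover for 23 h after each exposure. Cells of both groups grew in the line's medium, which held 100 nM dexamethasone, a glucocorticoid. Each peroxide exposure was given in serum-free medium, and complete medium was restored for recovery. Whether control cells had the same changes of medium is not given in the sources used here. The RNA of 3 samples was pooled for each library, so each condition had 1 library, no difference could be tested against a spread between cultures, and every interval given covers counting error only. In such bulk RNA, fewer cells that express a gene and less RNA of it in each cell cannot be told apart.

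Hepatocyte identity rests on a small set of transcription factors that bind the enhancers of liver genes together and also bind each other's genes. HNF4A, NR5A2 (also called LRH-1) and the FOXA, C/EBP and ONECUT proteins come from different families: nuclear receptors, forkhead factors that can open compact chromatin, leucine zipper factors, and factors with a cut domain and a homeodomain. HNF4A is the most general activator of hepatocyte genes, C/EBPα drives the metabolic genes of the resting hepatocyte, C/EBPβ the acute phase response and regeneration, and NR5A2 the genes of bile acid and cholesterol handling.

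The control library held 28021941 reads on 17403 genes and the senescent library 25738075 reads on 17592 genes, scaled with TMM factors of 1.04 and 0.964. Of 18 hepatocyte markers, 15 had at least 10 reads, and the summed level of the whole list was 3149 CPM (reads per scaled library size) in control and 1709 in senescent cells. Of the 15, 4 rose (Cyp2e1, Cyp3a11, Cps1 and Serpina1c) and 3 fell (Alb, Apoa1 and Hpx, the last named after its value was seen), with a median log2 ratio of 0.03, or -0.07 with total counts. The 4 that rose had under 100 reads, and over markers with at least 100 reads 0 rose and the median was -1.42. By the rule given below, 5.60% of all tested genes were lower and 2.71% higher. Alb (albumin) had 32076 and 2917 reads, Apoa1 2026 and 197, and Apob 22158 and 25094. The label of a hepatocyte line held for these genes, while other hepatocyte markers were near 0: Cyp2e1 had 0 and 50 reads and Cyp3a11 2 and 18. Of 12 cholangiocyte or progenitor markers, 9 had at least 10 reads, the list summed to 3561 and 2737 CPM, and Cftr rose from 44 to 176 reads, whereas Epcam had 0 and 1 reads. Macrophage markers (4 of 12 with at least 10 reads, 194 and 82.3 CPM), stellate or fibroblast markers (2 of 12, 684 and 1068, nearly all Vim) and endothelial markers (2 of 10, 28.9 and 11.5) lacked their defining genes: Adgre1, Clec4f, Marco, C1qa and C1qb, then Col1a2, Col3a1, Acta2, Lum and Thy1, and then Tie1 and Clec4g had 0 reads in both libraries. Among the markers with reads, Ptprc had 27 and 76, Csf1r 15 and 40, Cd68 34 and 40, Cd14 5551 and 1879, Col1a1 21 and 1, Vim 19877 and 26489, Vwf 8 and 24, and Stab1 827 and 246. The part of these levels in the results on the 8 factors was not tested.

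With TMM scaling, the 8 genes split into a group within 1.23-fold of its control level and a group that was much lower in senescent AML12 cells. Foxa1, Foxa3, Onecut1 and Nr5a2 fell by 3.82-fold to 9.66-fold, Cebpa was 2.71-fold lower and stayed just short of the threshold, and Hnf4a, Foxa2 and Cebpb made up the first group, with Cebpb at its lower end. To be counted as lower or higher, a gene needed 10 reads or more in the sum of the libraries, a log2 ratio of senescent over control past 1.5 in either direction, and a 95% interval of that ratio without 0. By this rule 4 of 8 genes were lower and 0 were higher. Among all 14383 genes with at least 10 reads, 805 were lower, or 5.60%, and 390 higher, or 2.71%. With at least 100 reads, which each of the 8 genes had, 395 of 11291 genes were lower, or 3.50%, and 141 higher, or 1.25%. The median log2 ratio was -1.69 over the 8 genes and -0.02 over all tested genes. The 4 lower genes had control levels between 2 and 15 RPKM (reads scaled to exon length and to the TMM-scaled library size), and in that class, chosen after the values were seen, 197 of 6142 genes were lower, or 3.21%.

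**Figure D1:**
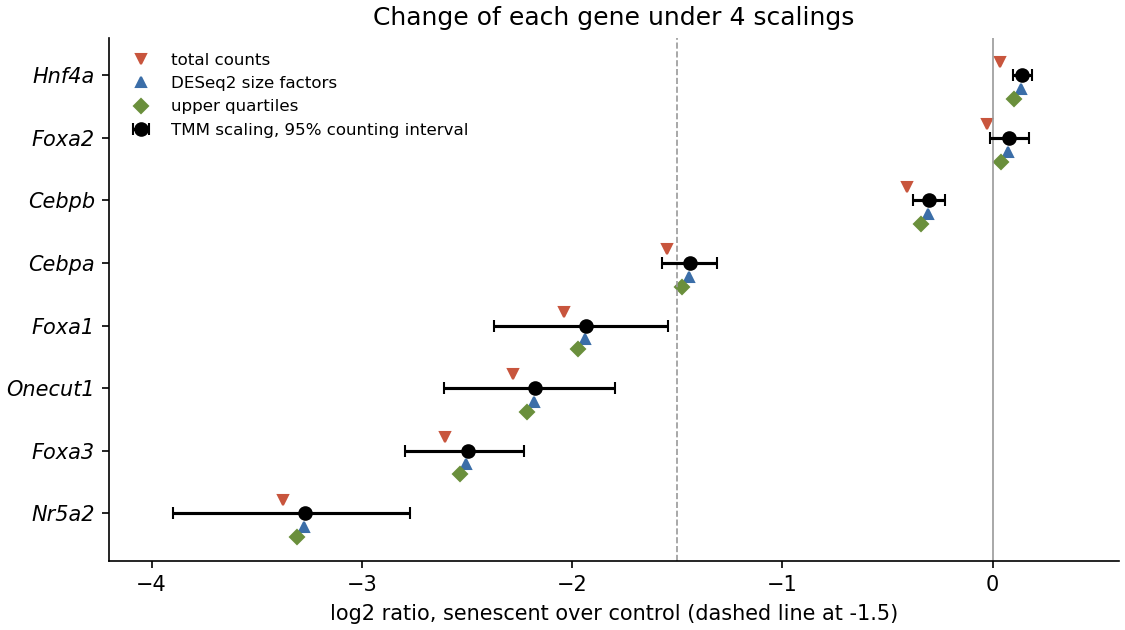
Log2 ratio of senescent over control AML12 cells (horizontal axis) for each of the 8 genes (vertical axis), with 1 library per condition. Black points and bars show TMM scaling with its 95% counting interval, colored marks the other 3 scalings, and the dashed line the threshold of -1.5; the 4 lowest genes lie left of it under every scaling, Cebpa lies near it, and Foxa2 lies on either side of 0.

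The promoters of the 8 genes were searched for letters bound by these factors or by HNF1, another liver factor, and the 5 stretches shown are those with a match. The 250 bases before each RefSeq transcription start were searched in GRCm38.p6, and all 8 genes matched, with 12 windows, since Hnf4a, Foxa2 and Nr5a2 have several starts. Bases that an annotated exon covers are not shown. Exact matches were sought on both strands for HNF4 (CAAAGTCCA), FOXA (TGTTTAC), C/EBP (TTGCNNAA), NR5A2 (CAAGGTCA), ONECUT (ATTGATT) and HNF1 (GTTAATNAT). Of 32851 RefSeq windows of the same length, 0.384% held the HNF4 letters, 3.17% FOXA, 9.56% C/EBP, 1.33% NR5A2, 2.61% ONECUT and 0.737% HNF1. In the following stretches, written 5′ to 3′ on the strand of the gene, capitals mark the match.
Hnf4a, upstream start, chr2:163506607-163506807, plus strand: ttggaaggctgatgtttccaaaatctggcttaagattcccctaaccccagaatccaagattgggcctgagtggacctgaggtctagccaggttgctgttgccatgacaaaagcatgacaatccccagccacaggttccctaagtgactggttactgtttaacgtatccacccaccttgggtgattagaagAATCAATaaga
Foxa1, chr12:57546122-57546361, minus strand: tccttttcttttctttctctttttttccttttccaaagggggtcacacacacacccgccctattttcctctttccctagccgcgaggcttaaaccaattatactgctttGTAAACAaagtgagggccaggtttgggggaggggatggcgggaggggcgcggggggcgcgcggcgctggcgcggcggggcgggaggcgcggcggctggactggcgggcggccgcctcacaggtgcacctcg
Foxa2, chr2:148046970-148047219, minus strand: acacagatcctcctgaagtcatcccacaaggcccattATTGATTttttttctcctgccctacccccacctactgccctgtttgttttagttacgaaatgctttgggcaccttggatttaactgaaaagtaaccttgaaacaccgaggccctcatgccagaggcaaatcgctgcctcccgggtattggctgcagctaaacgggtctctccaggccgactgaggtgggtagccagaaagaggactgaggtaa
Nr5a2, inner start, chr1:136953631-136953880, minus strand: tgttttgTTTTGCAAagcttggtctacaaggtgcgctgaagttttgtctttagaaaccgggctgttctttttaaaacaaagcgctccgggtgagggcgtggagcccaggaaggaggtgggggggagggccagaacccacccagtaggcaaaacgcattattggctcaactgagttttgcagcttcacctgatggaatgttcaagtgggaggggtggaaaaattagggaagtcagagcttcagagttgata
Nr5a2, outer start, chr1:136960449-136960698, minus strand: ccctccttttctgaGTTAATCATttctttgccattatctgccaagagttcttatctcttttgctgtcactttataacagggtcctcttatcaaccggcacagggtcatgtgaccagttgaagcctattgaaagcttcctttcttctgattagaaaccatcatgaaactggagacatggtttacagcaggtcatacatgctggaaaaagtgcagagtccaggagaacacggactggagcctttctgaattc

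Hnf4a held the ONECUT letters at -60 to -54 from its upstream start, read on the opposite strand. Foxa1 held the FOXA letters at -141 to -135, also on the opposite strand. Foxa2 held the ONECUT letters at -213 to -207 from its outermost start. Nr5a2 held the C/EBP letters at -243 to -236 from its inner start, read on the opposite strand. It held the HNF1 letters at -236 to -228 from its outer start. None of the 6 motifs had an exact match in the windows of Foxa3, Cebpa, Cebpb and Onecut1, nor in the other windows of Hnf4a and Foxa2. Matches thus lay before genes that fell, Foxa1 and Nr5a2, and before genes near their control level, Hnf4a and Foxa2, and a match describes letters, not a bound site.

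Hnf4a (ENSMUSG00000017950, chr2:163506808-163572910, plus strand) had 8187 reads in control and 7705 in senescent cells, which after scaling was 282 and 311 CPM. The log2 ratio was 0.14 (95% interval 0.10 to 0.19) with TMM scaling and 0.04 (-0.01 to 0.08) with total counts, so no direction was detectable under the latter. Hnf4a ranked among the more abundant genes, with a per-length level above that of 94.0% of tested genes in control and 94.5% in senescent cells. Its upstream and downstream promoters give different isoforms, which counts per gene do not separate, and the antisense gene Hnf4aos, with 3 and 2 reads, shares none of its exon bases.

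The FOXA genes, whose proteins share a forkhead domain, did not move together. Foxa2 (ENSMUSG00000037025, chr2:148042877-148046969, minus strand) had 2032 reads in control and 1832 in senescent cells, a log2 ratio of 0.08 (-0.01 to 0.17) with TMM scaling and -0.03 with total counts, so no direction was detectable. Foxa1 (ENSMUSG00000035451, chr12:57540628-57546916, minus strand), which acts early in liver specification together with Foxa2, went from 276 reads in control to 61, at a log2 ratio of -1.93 (-2.37 to -1.54). Foxa3 (ENSMUSG00000040891, chr7:19013284-19023538, minus strand), the member that comes on latest in development and is prominent in adult hepatocytes, went from 799 to 120 reads, at a log2 ratio of -2.50 (-2.79 to -2.23). The control reads of Foxa1 and Foxa3 thus exceeded the senescent ones severalfold, while those of Foxa2 nearly matched.

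Ratios between genes of the same library do not depend on the scaling. Per length, Foxa1 stood at 9.68% of Foxa2 in control and 2.37% in senescent cells, a log2 change of -2.03 (-2.44 to -1.62). Foxa3 stood at 45.7% of Foxa2 in control and 7.62% in senescent cells, a log2 change of -2.59 (-2.88 to -2.29). As a share of the summed FOXA level, Foxa2 went from 64.3% to 90.9%, Foxa3 from 29.4% to 6.93% and Foxa1 from 6.23% to 2.16%. The FOXA transcripts of senescent cells were therefore mostly those of Foxa2.

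The C/EBP genes differed from each other as well. Cebpa (ENSMUSG00000034957, chr7:35119293-35121928, plus strand) had 1993 reads in control and 626 in senescent cells, a log2 ratio of -1.44 (-1.57 to -1.31). It missed the threshold with TMM scaling, DESeq2 size factors (-1.45) and upper quartiles (-1.48) and passed it with total counts (-1.55). Cebpb (ENSMUSG00000056501, chr2:167688915-167690418, plus strand) had 3379 reads in control and 2337 in senescent cells, or -0.30 on the log2 scale (-0.38 to -0.23). With total counts the ratio of Cebpb was -0.41 (-0.49 to -0.33). Cebpa stood at 33.7% of Cebpb per length in control and 15.3% in senescent cells, a log2 change of -1.14 (-1.29 to -0.99), and its share of their summed level went from 25.2% to 13.3%. Tmem189, on the opposite strand, shares 312 of the 1504 exon bases of Cebpb (20.7%) and had 694 and 630 reads, and whether strand was used in the counting is not given in the sources used here.

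Nr5a2, the bile acid and cholesterol regulator, and Onecut1, a factor of biliary development and glucose metabolism, were among the least abundant of the 8. Nr5a2 (ENSMUSG00000026398, chr1:136842571-136960448, minus strand) had 349 reads in control and 30 in senescent cells, a log2 ratio of -3.27 (-3.90 to -2.77), and only 0.709% of tested genes had a lower ratio. Onecut1 (ENSMUSG00000043013, chr9:74861921-74891781, plus strand), which encodes HNF6, went from 332 to 62 reads, at a log2 ratio of -2.17 (-2.61 to -1.80). A lincRNA on the same strand, Gm20649, shares 2171 of the 4113 exon bases of Onecut1 (52.8%) and had 0 reads in both libraries. The corresponding share of tested genes with a lower ratio was 1.80% for Foxa3, 2.60% for Onecut1, 3.52% for Foxa1 and 6.19% for Cebpa, against 33.0% for Cebpb, 56.8% for Foxa2 and 61.1% for Hnf4a.

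**Figure D2:**
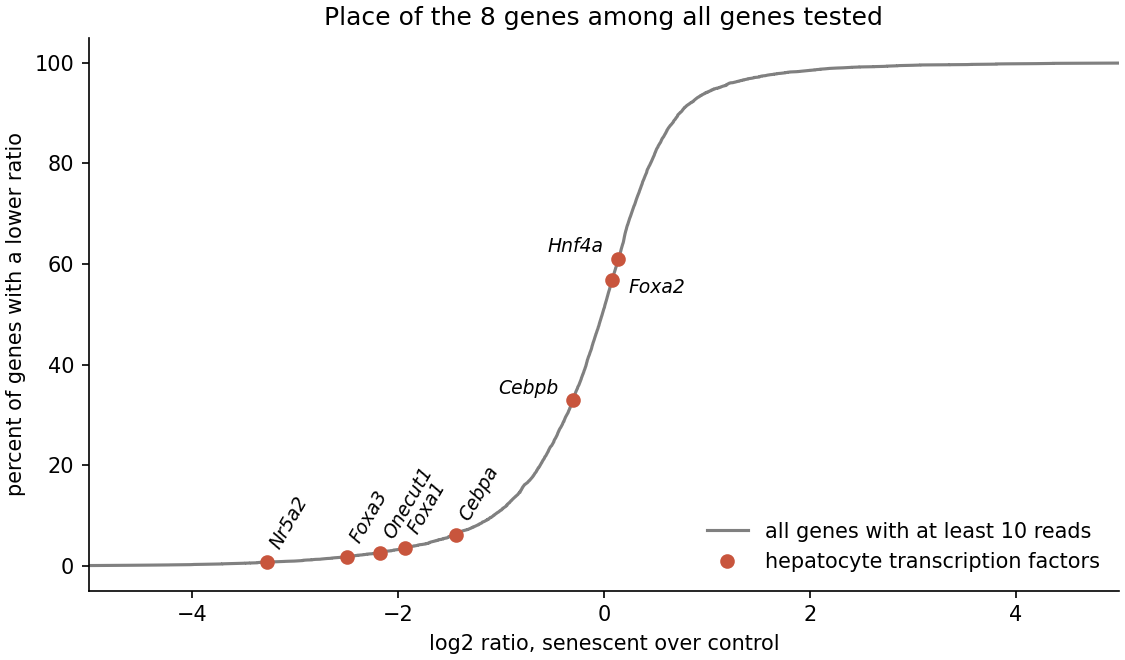
Cumulative share of the 14383 tested genes (vertical axis, percent) with a log2 ratio of senescent over control below the value on the horizontal axis, with the 8 factors as red points. Nr5a2, Foxa3, Onecut1, Foxa1 and Cebpa lie on the lower tail, and Cebpb, Foxa2 and Hnf4a in the steep middle.

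Relative to Hnf4a, again free of any scaling, the log2 change was -3.45 for Nr5a2, -2.65 for Foxa3, -2.33 for Onecut1, -2.09 for Foxa1, -1.58 for Cebpa and -0.44 for Cebpb. Foxa2 changed by -0.06 relative to Hnf4a (-0.16 to 0.04), an interval that includes 0. Nr5a2 stood at 3.49% of Hnf4a per length in control and at 0.319% in senescent cells.

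Levels between genes were compared per length, as RPKM on scaled reads over all exon bases. In control cells the order was Cebpb (77.3), Hnf4a (58.3), Foxa2 (29.5), Cebpa (26.0), Foxa3 (13.5), Foxa1 (2.85), Onecut1 (2.78) and Nr5a2 (2.03). In senescent cells the levels were 64.3 for Hnf4a, 62.7 for Cebpb, 31.2 for Foxa2, 9.58 for Cebpa, 2.38 for Foxa3, 0.739 for Foxa1, 0.608 for Onecut1 and 0.205 for Nr5a2. The counting intervals of Foxa1 and Onecut1 overlapped in both libraries, and those of Hnf4a and Cebpb overlapped in senescent cells. The highest level was 38.0 times the lowest in control and 314 times in senescent cells. Cebpa went from above 85.2% of tested genes to above 64.6%, Foxa3 from 72.9% to 37.2%, and Nr5a2 from 32.4% to 10.8%. With the median length of the coding transcripts in place of all exon bases, Hnf4a (112 in control) stood above Cebpb in control too. On that length, Nr5a2 (6.46 in control) stood above Foxa1 and Onecut1 in control. In senescent cells it lay at 0.651, between Foxa1 (0.771) and Onecut1 (0.632). With all its reads set over only the exon bases that no other gene shares, Onecut1 had a level of 5.88 and 1.29. The reads themselves were not limited to those bases. Cebpb, treated likewise, had 97.5 and 79.1, above Hnf4a in both libraries. The order of the 3 least abundant genes, and that of Hnf4a and Cebpb, thus rests on the length used.

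**Figure D3:**
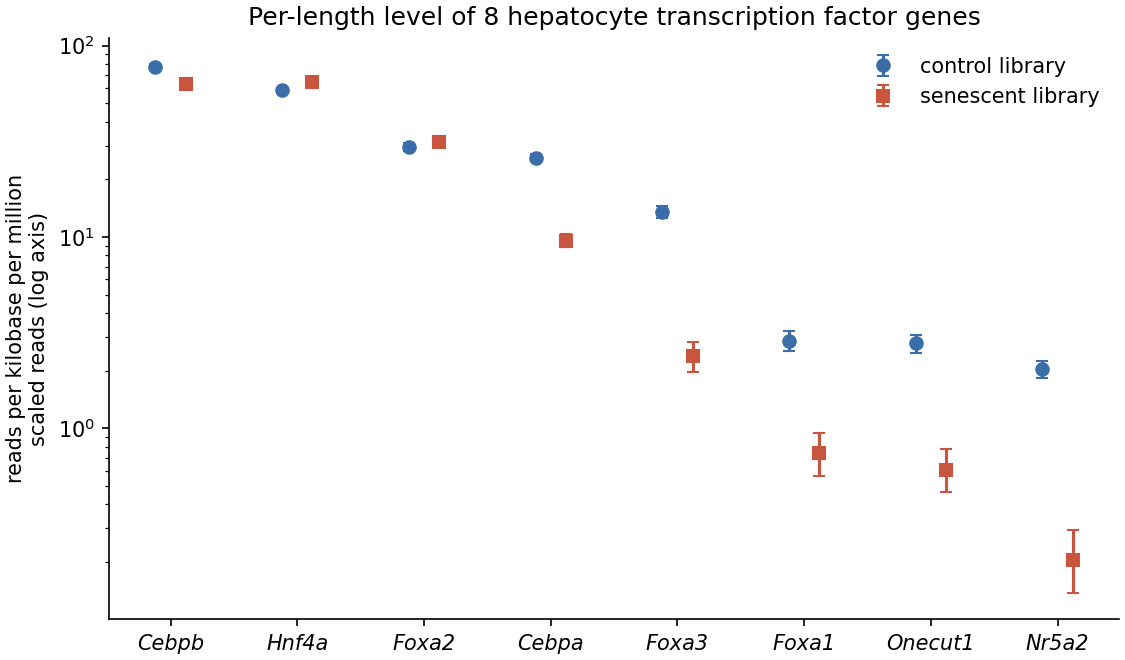
Per-length level (log axis, RPKM on scaled reads) of each gene in the control library (blue circles) and the senescent library (red squares), with exact 95% Poisson intervals for counting error. Hnf4a and Foxa2 stay near their control height, Cebpb goes from 77.3 to 62.7, and the other 5 genes lie well below control, Nr5a2 at 0.205 against 2.03.

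Of 8 genes of the same families, 4 had at least 10 reads, and 0 of these were past the threshold in either direction, beside 5.60% lower and 2.71% higher among all tested genes. Their median log2 ratio was 0.08, or -0.03 with total counts. Onecut2, the paralog of Onecut1, had 6404 reads in control and 5548 in senescent cells, or 0.02 on the log2 scale (-0.03 to 0.07) with TMM scaling, -0.02 with upper quartiles and -0.08 with total counts, and its per-length level of 13.6 in control and 13.8 in senescent cells was above that of Onecut1 in both. Cebpd, an acute phase member of the C/EBP family, had 320 and 127 reads, or -1.10 on the log2 scale (-1.41 to -0.80), and was lower with a threshold of 1. Cebpg had 3215 and 3016 reads (0.14, or 0.03 with total counts), and Ddit3, which encodes the stress factor CHOP, had 874 and 936 (0.33). Hnf4g (2 and 1 reads), Nr5a1 (0 and 1), Onecut3 (2 and 0) and Cebpe (0 and 0) were at or under the floor of 3 reads.

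Of 32 other liver transcription factors, 30 had at least 10 reads, 7 fell and 0 rose, with a median log2 ratio of -0.54. Among all tested genes, 5.60% were lower and 2.71% higher. With at least 100 reads, 5 of 26 in this list fell, beside 3.50% of all genes, and Nr1i2 and Nr1i3 dropped out. The largest falls in this list were those of Mlxipl, which encodes the carbohydrate sensor ChREBP (587 to 81 reads, -2.61), Nr1i2, the xenobiotic receptor PXR (45 to 8, -2.14), Rora (396 to 78, -2.10) and Nr1i3, the receptor CAR (63 to 16, -1.69). The highest ratios were those of Atf5 (6426 and 9568 reads, 0.80) and Gata4 (738 and 818, 0.38), neither past the threshold. Over the 2 libraries and 30 candidates with at least 100 reads, the ratio nearest to that of Foxa3 was that of Mlxipl, 0.12 away on the log2 scale. Rora was nearest to Onecut1 (0.07 away) and to Foxa1 (0.17), Klf15 (1504 and 418 reads) to Cebpa (0.18), Nr2f6 (5090 and 3481) to Cebpb (0.02), and Cebpg to Hnf4a and Foxa2. No candidate came closer than 0.66 to Nr5a2, whose fall was larger than that of any of them.

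**Figure D4:**
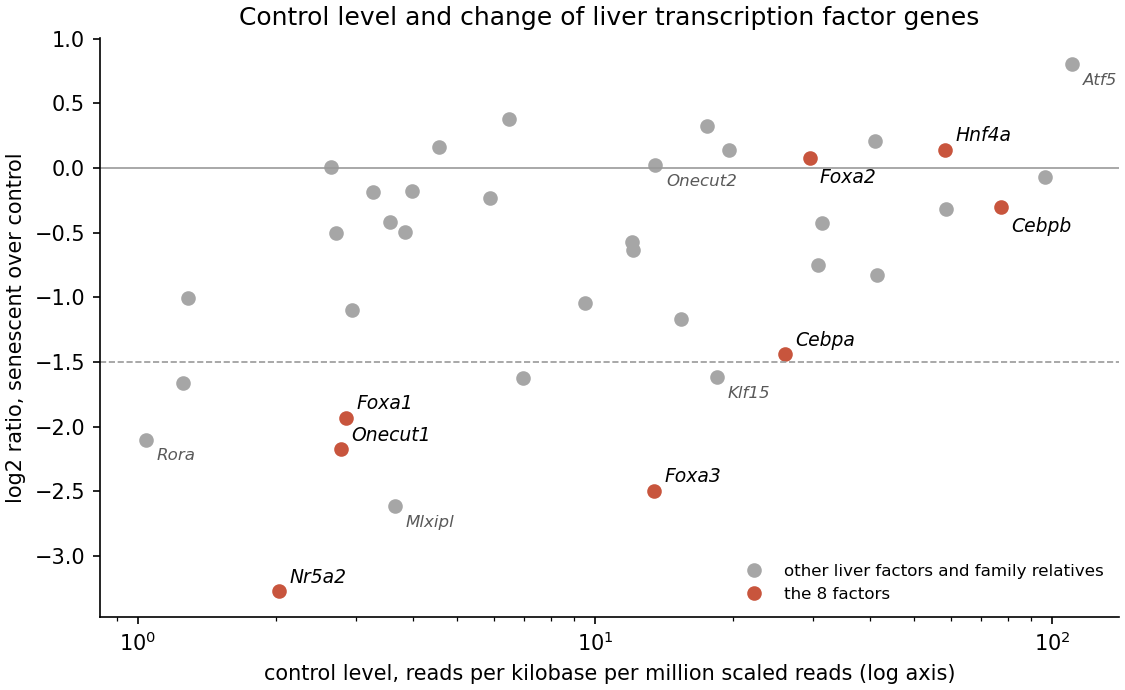
Control level per length (horizontal log axis, RPKM on scaled reads) against the log2 ratio of senescent over control (vertical axis) for the 8 factors (red) and for 30 other liver factors and family relatives with at least 100 reads (gray). Foxa3 and Mlxipl lie far below the dashed threshold at -1.5 while Onecut2, at nearly the control level of Foxa3, lies at 0.

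Of 18 coregulators, 17 were in the table and 16 had at least 10 reads. Of these, 1 fell and 0 rose, with a median log2 ratio of 0.28. That 1 of 16 fell is near the share of all tested genes that were lower, 5.60%, while 2.71% were higher. Ppargc1a, the coactivator PGC-1α that works with HNF4A and other nuclear receptors in fasting, fell from 105 to 16 reads (-2.42). Ncoa3 (871 and 1269 reads, 0.77), Trib1 (689 and 795, 0.44), Med1 (1807 and 1990, 0.37) and Tle3 (2694 and 1578, -0.54) were not past the threshold.

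The genes known as targets of these factors were taken from general knowledge as 6 lists with 84 distinct genes, 17 of which stand in several lists. These lists were chosen with earlier results of these data known, so their counts are descriptions and not tests. A list's count says nothing of which factor acts on it, and each is read beside the 5.60% of all tested genes that were lower and the 2.71% that were higher. Of 30 HNF4A targets, 19 had at least 10 reads, 5 fell and 0 rose, with a median log2 ratio of -0.70. Apoa1, the main protein of HDL, went from 2026 reads to 197 (-3.13) and Slc2a2, the glucose transporter GLUT2, from 1523 to 360 (-1.85), and Nr1i2 and Nr1i3 fell as given above. Apob (0.41) and Tat (15 and 17 reads) had the highest ratios.

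Of 18 FOXA targets, 13 had at least 10 reads, 4 fell and 2 rose, with a median of -0.65. Alb fell from 32076 to 2917 reads (-3.23), Pdk4, a brake on glucose oxidation, from 217 to 27 (-2.74), and Shh from 12 to 0, at least 3.41-fold lower, beside Slc2a2. Abcc2, the canalicular export pump MRP2, rose from 390 to 2690 reads (3.01), and Cps1, the entry enzyme of the urea cycle, from 19 to 55 (1.71). Of 18 C/EBPα targets, 14 had at least 10 reads, 2 fell (Alb and Ugt1a6a, 121 to 28 reads) and 1 rose (Cps1), with a median of -0.37, while Ass1 (-1.34), Ttr (-0.91) and Cdkn1a, the cell cycle inhibitor p21 (6182 and 9869 reads, 0.90), were not past the threshold.

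Of 20 acute phase and inflammatory genes linked to C/EBPβ, 15 had at least 10 reads, 10 fell and 2 rose, with a median of -1.74. Saa3 fell from 626 to 7 reads (-6.08), Lcn2 from 4293 to 125 (-4.86), Hp, haptoglobin, from 2886 to 88 (-4.79), and C3, complement component, from 41055 to 2194 (-4.00), while Fga rose from 8 to 34 (2.17) and Ptgs2 from 25 to 66 (1.59, or 1.49 with total counts). These falls stood beside a log2 ratio of -0.30 for Cebpb itself. Of 14 NR5A2 targets, 6 had at least 10 reads, 4 fell and 0 rose, with a median of -1.73. With an assumed coefficient of variation of 0.4, 2 of them fell (Slc10a2 and Cyp17a1 being lost), and with a threshold of 2 only Apoa1 did. Akr1d1, a bile acid synthesis enzyme, fell from 339 to 80 reads (-1.84), Slc10a2, a bile acid transporter, from 382 to 105 (-1.63), and Cyp17a1 from 17 to 3, at least 4.83-fold lower, beside Apoa1, while Scarb1, the HDL receptor, had 764 and 1039 reads (0.67). Of 12 ONECUT1 targets, 7 had at least 10 reads, 1 fell (Slc2a2) and 0 rose, with a median of -0.65, and the list includes Hnf4a and Foxa2 themselves, next to Ttr and G6pc (8 and 4 reads). When genes with at least 1 read were admitted, the median turned positive for the NR5A2 (0.67), FOXA (0.20) and ONECUT1 (0.08) targets, since many of their genes had under 10 reads.

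**Figure D5:**
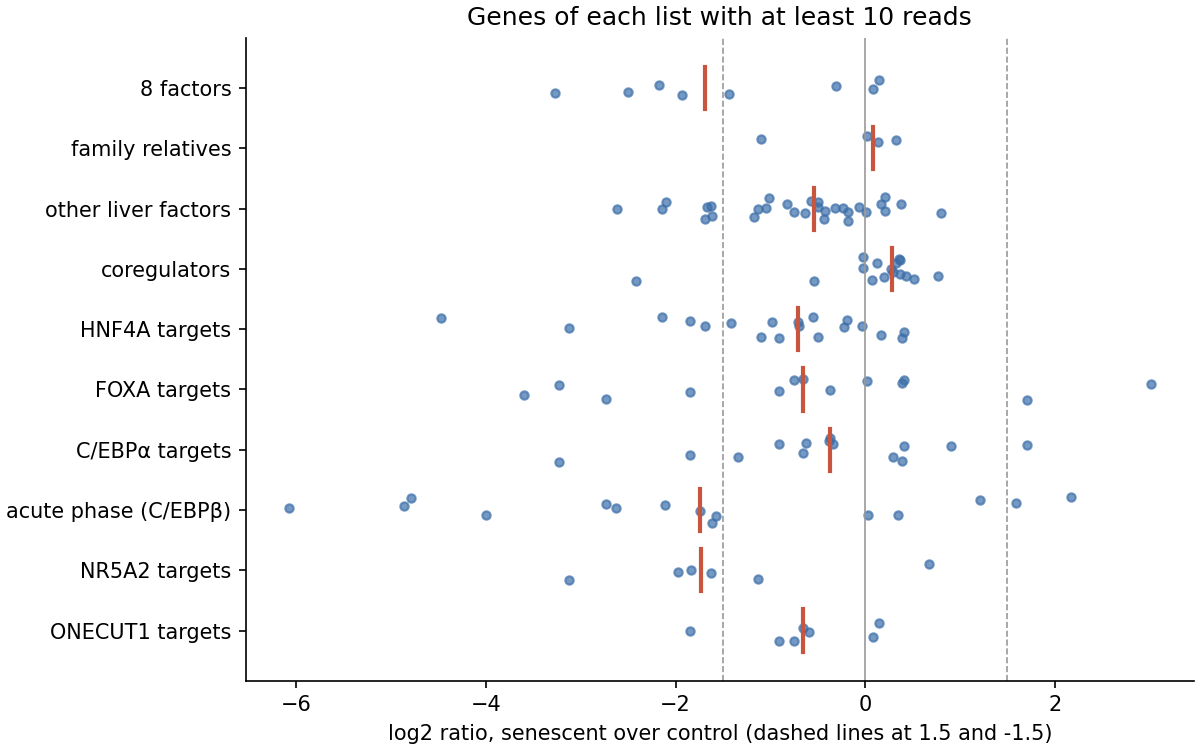
Log2 ratio of senescent over control (horizontal axis) of each gene with at least 10 reads, 1 row of blue points per list, with the list median as a red line and dashed lines at 1.5 and -1.5. The 8 factors, the acute phase genes and the NR5A2 targets have medians near -1.7, and the coregulators (0.28) and family relatives (0.08, or -0.03 with total counts) have medians nearer to 0.

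Sequence shared between genes was searched for, and its effect on the counts was not tested. Of all 50-base windows of their transcripts, Hnf4a, Foxa1, Foxa2 and Foxa3 shared 0 with other annotated transcripts, Cebpa 3 of 2636 (with the antisense gene Gm45091) and Nr5a2 3 of 5939 (with Gm18981). Cebpb shared 264 of 1455, with Tmem189, and Onecut1 2124 of 4062, with Gm20649 and Onecut3. Gm20649 and Onecut3 had at most 2 reads in either library. How reads in shared sequence were counted is not given in the sources used here. These low counts therefore cannot show that the count of Onecut1 was untouched.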

How the data were processed

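RNAseq of 2 libraries, control and senescent AML12 cells, was analysed. The authors deposited raw read counts per gene. The submitters' processing notes name CASAVA, STAR, DESeq2, edgeR and mm10, and the counting tool, its strand setting and the annotation are not given in the sources used here. Columns were assigned to samples by the initials of their names and titles, and 0 other per-sample columns were found. Symbols, exons and lengths came from GENCODE M21, with a symbol for 34490 of 35275 genes. Library sizes were scaled by TMM in edgeR 4.0.16 under R 4.3.3, and log2 ratios used a prior count of 1. The 95% intervals of the log2 ratio of a gene are Clopper-Pearson intervals of the senescent share of reads. Those of the change of a gene relative to another used a normal approximation, and those of levels were exact Poisson intervals. Like the floor of 3 reads, all of them cover counting error only. No p-value was computed, since each condition had 1 library. Python 3.11.15, with scipy 1.17.1, was used, and the scripts were tested on simulated data.

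Alternatives were total counts, DESeq2 1.42.0 size factors, upper quartiles, prior counts of 0.125 and 5, at least 1 or 100 reads, thresholds of 1 and 2, assumed biological coefficients of variation of 0.1 and 0.4, and coding transcript length. Levels with all reads of a gene set over its unshared exon bases were added after the data were seen. All 8 factors, their family relatives and overlapping genes are named, and of each other list up to 4 genes farthest in the direction of its median and up to 2 in the other, with the listed factor nearest to each of the 8. The factors and lists were chosen with earlier results of these data known. Some genes that this rule selects are not reported here, though they stand in the counts and medians. A planned comparison of protein sequences was not made.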

Additional observations from a re-analysis of the deposited data

How the results depend on the processing

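With 1 library per condition, no result has a replicate check, and no replicate could be left out. No paired analysis was possible because each condition has 1 library. Of the 8 factors, 4 (Foxa1, Foxa3, Nr5a2 and Onecut1) were lower, and 0 higher, under 8 of 11 alternatives. Among these alternatives, the filters of at least 1 or 100 reads could not change the count, since each of the 8 genes had over 100 reads. With total counts or a threshold of 1, 5 were lower, Cebpa being added, and with a threshold of 2, 3 were lower, Foxa1 being lost. Total counts shifted the median of all genes by -0.11 on the log2 scale, DESeq2 size factors by -0.01 and upper quartiles by -0.04. Under total counts, Foxa2 (-0.03), Onecut2 (-0.08, and -0.02 under upper quartiles) and the median of the family relatives (-0.03) changed sign. The median of the NR5A2 targets turned from -1.73 to 0.67 with at least 1 read, since that admits genes with few reads. Of 58 other genes under the naming rule, 32 were past the threshold. None of these 32 changed sign under another scaling or prior count, but this outcome was fixed in advance. The scalings moved ratios by about 0.11 or less on the log2 scale, far short of 1.5, and a prior count only changes the size of a ratio. Calls changed for 3 of the 58 with total counts, 5 with a prior count of 5, 14 with at least 100 reads, 5 with a threshold of 1, 13 with a threshold of 2 and 10 with a coefficient of variation of 0.4. With a threshold of 2, the lower count went from 7 to 3 for other liver factors, 5 to 3 for HNF4A targets (2 with at least 100 reads), 2 to 1 for C/EBPα, 4 to 1 for NR5A2 and 1 to 0 for ONECUT1 targets. Over all genes, 390 were higher and 805 lower, against 259 and 602 with a prior count of 5, 141 and 395 with at least 100 reads, 732 and 1435 with a threshold of 1, 219 and 460 with a threshold of 2, and 243 and 571 with a coefficient of variation of 0.4. Depth limits the genes with under 10 reads, which include most NR5A2 targets.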
